A study of Gallus gallus with 3 samples.

Results

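Fibroblast growth factor (FGF) genes were examined in cultured chicken (Gallus gallus) cells by RNA sequencing of total RNA. The set comprised 10 genes given by symbol, namely FGF1, FGF2, FGF3, FGF4, FGF8, FGF9, FGF12, FGF13, FGF18 and FGF19. All 10 were found among the 19152 genes of the deposited count table, and none of them shared exon bases with another gene. PGCs (primordial germ cells, from which eggs and sperm descend) were represented by 2 libraries (replicates 2 and 3). Embryonic stem cells (ESCs), which served as the somatic counterpart, were represented by 1 library (replicate 2). Both cell types were cultured without a labelled treatment, the study's methods call the replicates biological, and the strain, sex, culture medium and number of lines behind the libraries are not given in the sources used here.

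FGFs are signalling proteins that mostly leave the cell, bind heparan sulfate at the surface of the target cell and activate FGF receptor tyrosine kinases, which signal through RAS and the MAP kinase cascade. FGF19 belongs to a subfamily that acts over longer distances as hormones and needs a Klotho protein as co-receptor, whereas FGF12 and FGF13 stay inside the cell and bind voltage-gated sodium channels. In the chick embryo FGF signals act at the primitive streak and in the limb bud, ear and neural tube, and FGF2 protein is commonly added to the medium in which chicken PGCs are grown. Added protein is not seen in an RNA measurement.

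Counts assigned to genes totalled 19754278 and 20401551 in PGC replicates 2 and 3 and 20568106 in the ESC library. A gene was tested if any library held 10 counts of it or more, which kept 14489. Levels are given as counts, as CPM (counts scaled to a common library size with TMM factors), or as TPM, which also divides by gene length and is used wherever genes are compared with each other. Of 14489 genes, 41.7% differed between PGCs and the ESC library at an adjusted p under 0.05 in edgeR's quasi-likelihood test, 21.2% being higher and 20.6% lower in PGCs. Higher genes made up 50.7% of these calls, and 66.9% when libraries were scaled by total counts alone. The test takes its spread from the 2 PGC libraries and assumes that the lone ESC library varied like them, so every difference below describes a single ESC library, and variation between ESC samples was not measured here. The study's methods name further replicates of both cell types, which were not analysed here. All 5 measured germ cell markers were higher in PGCs, with DAZL at 45865 and 47278 counts in PGCs and 16 in the ESC library. Of the 6 pluripotency markers 2 were lower in PGCs, namely SALL4 (2650, 7352 and 17253 counts) and LIN28B (564, 583 and 1831 counts), and 4 did not pass, among them NANOG with 4455, 6131 and 4284 counts.

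In PGCs, FGF2 and FGF12 were the leading members by TPM, although the counting interval of FGF13 overlapped theirs in PGC replicate 3. By CPM, which does not divide by gene length, FGF13 exceeded both in that library. Compared by CPM, FGF2 and FGF12 stood at a similar level in the ESC library. In contrast, FGF4, FGF3, FGF8 and FGF18 had at least 126 counts in the ESC library and at most 9 in a PGC library, and FGF19 had 1074 counts against 34 and 59. FGF13 and FGF1 were also lower in PGCs, but by an amount that depended on the PGC library. By edgeR's quasi-likelihood test, adjusted over all genes, 7 of the 10 genes were lower in PGCs, against 20.6% of all genes, and 3 did not pass. The number higher in PGCs was 0 at an adjusted p under 0.05, 0 at an unadjusted p under 0.05, and 0 with DESeq2. For FGF9, the member with higher values in both PGC libraries, DESeq2 gave no adjusted p, so it could not be called there. The same 7 genes lay 2-fold or more below the ESC level in each PGC library, which held for 15.8% of all genes, and 0 lay 2-fold or more above it, which held for 21.6%. FGF1, FGF3, FGF4, FGF8 and FGF18 passed the filter through the ESC library alone, so they had to be higher there, and the count describes the set without supporting anything about it. Over the 10 genes the log2 ratio of PGCs to the ESC library had a median of −3.93 (by library, −4.45 and −3.42), beside 0.03 for all tested genes. These ratios were computed with a prior count of 2 added. Without it, and with counts of 3 or fewer set to 3, the median of the 10 genes was −4.04. In bulk libraries, fewer cells expressing a gene and less RNA per cell cannot be told apart.

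**Figure D1:**
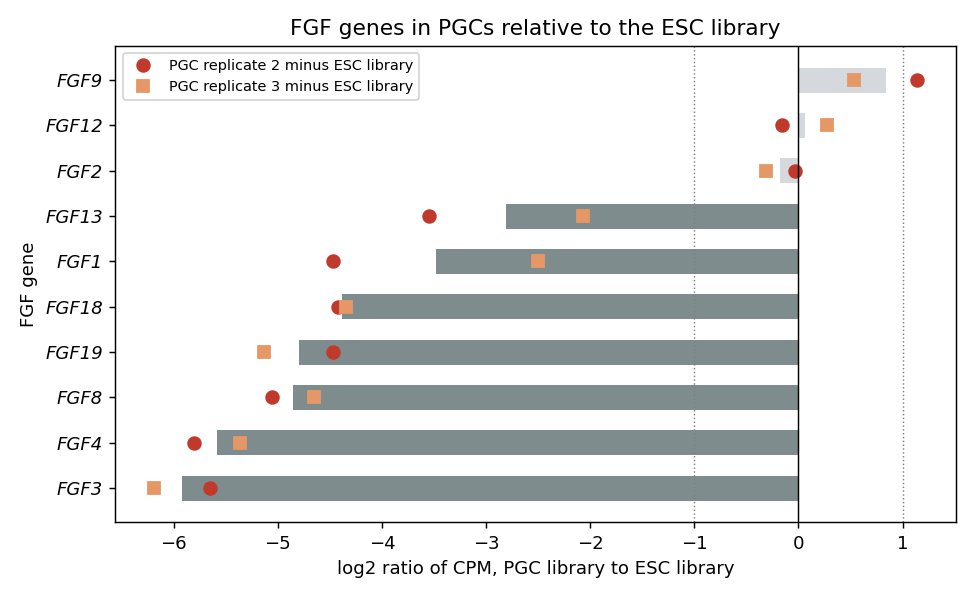
Log2 ratio of CPM, PGC libraries over the ESC library, for the 10 FGF genes (circles, PGC replicate 2; squares, PGC replicate 3; bars, mean of both; dark bars, adjusted p under 0.05 in edgeR; dotted lines, 2-fold). The means run from −5.92 for FGF3 to 0.84 for FGF9, and 7 genes lie beyond 2-fold on the left in both libraries.

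The order of levels differed between the cell types. In PGC replicate 2 the first 4 by TPM were FGF2 (23.3), FGF12 (12.2), FGF13 (4.86) and FGF19 (2.65). In PGC replicate 3 they were again FGF2 (16.6), FGF12 (14.3), FGF13 (12.0) and FGF19 (1.42). These 4 thus had the same order by TPM. In PGC replicate 3 the exact Poisson 95% intervals of FGF2, FGF12 and FGF13 were 13.8 to 19.7, 12.1 to 16.7 and 10.3 to 13.9 TPM. Those of FGF2 and FGF13 met only at their edges. Overlap of separate intervals does not settle whether levels differ. Below the first 4, FGF18 (1.35 and 1.25 TPM) and FGF9 (1.37 and 0.692 TPM) changed places between the libraries, and FGF1, FGF3, FGF4 and FGF8 were all under 0.5 TPM. In the ESC library FGF19 (40.9 TPM, interval 38.5 to 43.4) and FGF13 (39.4 TPM, 36.4 to 42.6) led and overlapped. They were followed by FGF18 (24.0 TPM, 20.7 to 27.7) and FGF4 (20.6 TPM, 17.3 to 24.3), whose intervals overlapped, and by FGF3 (16.4 TPM, 13.6 to 19.5) and FGF2 (16.1 TPM, 13.5 to 19.0), which were not distinguishable. FGF12 (9.18 TPM), FGF8 (3.83 TPM), FGF1 (2.27 TPM) and FGF9 (0.316 TPM) came last. These intervals cover counting error only. The gene models ran from 585 bases for FGF4 to 4815 for FGF8, and TPM divides by that length. Without that division FGF8, at 12.1 CPM, was exceeded by FGF19 and FGF13 alone in the ESC library. In PGC replicate 3 the order by CPM was FGF13 (8.40), FGF12 (7.44) and FGF2 (6.14), the reverse of that by TPM. In PGC replicate 2 FGF2 (7.46), FGF12 (5.49) and FGF13 (2.95) kept their order.

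**Figure D2:**
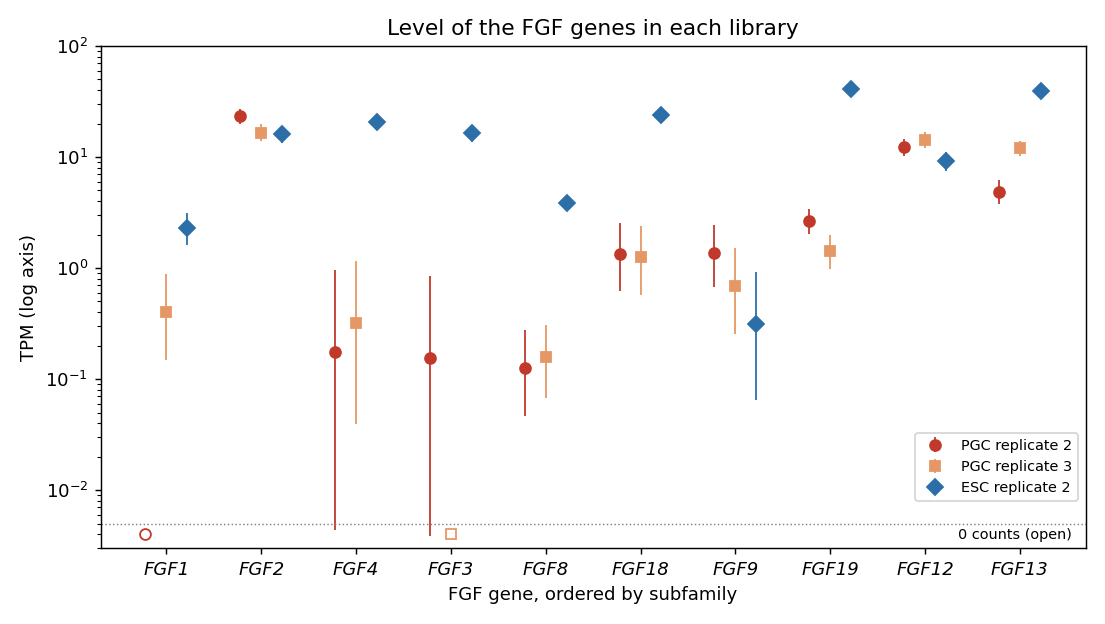
TPM of the 10 FGF genes in the 3 libraries on a log axis, with exact Poisson 95% intervals for counting error; open symbols are 0 counts. Over the 3 libraries FGF2 runs from 16.1 to 23.3 TPM and FGF12 from 9.18 to 14.3 TPM. FGF4 and FGF3 reach 20.6 and 16.4 TPM in the ESC library and stay at or below 0.323 TPM in PGCs.

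FGF19, FGF4 and FGF3 lie next to each other on chromosome 5 of the galGal5 build. FGF19 (ENSGALG00000028376) occupies 17561215 to 17566152, FGF4 (ENSGALG00000007562) 17590651 to 17593587 and FGF3 (ENSGALG00000026853) 17620088 to 17625226, all on the minus strand within 64.0 kb. No other gene of the count table lies between them. Of the summed TPM of the 10 genes, these 3 took 45.0% in the ESC library and 6.45% and 3.70% in PGC replicates 2 and 3.

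FGF19, which in the chick embryo takes part in induction of the inner ear and in adults regulates bile acid synthesis, had 59, 34 and 1074 counts in PGC replicate 2, PGC replicate 3 and the ESC library. Its mean log2 ratio was −4.80 ± 0.47 (SD, n = 2), with an adjusted p of 8.06e-06 in edgeR. Scaled to library size and pooled over the PGC libraries, the ESC level was 28.1-fold higher (exact 95% interval 22.7 to 35.1, counting error only). FGF4, a ligand of the primitive streak and limb bud that in mouse embryonic stem cells acts on the cells that make it, had 1, 2 and 140 counts. Its ESC level was 114-fold higher (38.1 to 557), with an adjusted p of 8.54e-05 in edgeR. FGF3, known for its part in ear and hindbrain development, had 1, 0 and 126 counts, an ESC level 307-fold higher (54.1 to 12209) and an adjusted p of 0.000109 in edgeR. The PGC counts behind the latter ratios were 3 and 1 in all. In PGC replicate 3 the floor of 3 counts corresponds to 0.144 CPM, and the exact 95% interval for 0 counts reached 3.69 counts.

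The genes flanking the 3 FGF genes differed from each other. LTO1, 2.17 kb below FGF19 and on the same strand, had 854, 842 and 681 counts and a log2 ratio of 0.03 ± 0.06, with an adjusted p of 0.921 in edgeR. On the other side ANO1, which encodes a calcium-activated chloride channel and starts 104.52 kb beyond FGF3, had 13, 7 and 54 counts and was lower in PGCs, with a log2 ratio of −2.53 ± 0.46 and an adjusted p of 0.0101 in edgeR.

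**Figure D3:**
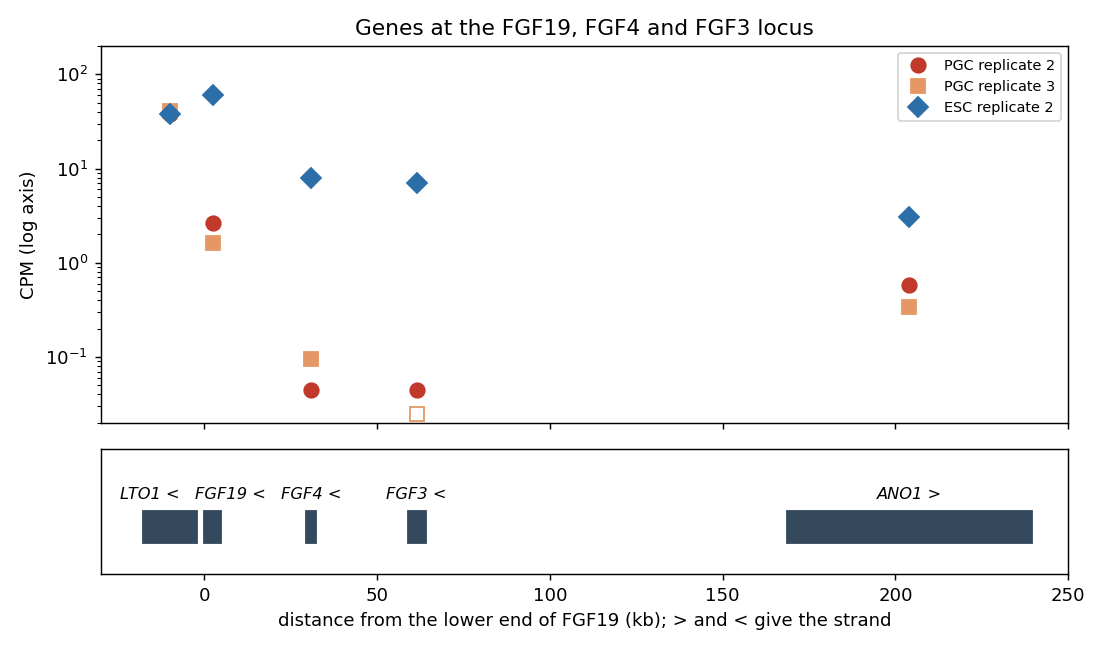
CPM (log axis) of the genes at the FGF19, FGF4 and FGF3 locus, placed by distance from the lower end of FGF19, with gene spans below (> plus strand, < minus strand; the open square is 0 counts). The 3 libraries coincide at LTO1, from 38.1 to 40.4 CPM, and separate at the 3 FGF genes.

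FGF8 and FGF18 belong to the same subfamily and were both lower in PGCs. FGF8 (ENSGALG00000007706, chromosome 6, 22705280 to 22715778), which guides cell movement at the primitive streak and patterns the midbrain and limb, had 6, 8 and 214 counts. Its log2 ratio was −4.85 ± 0.28 and its adjusted p 7.78e-05 in edgeR, and the ESC level was 37.2-fold higher (21.7 to 69.2). FGF18 (ENSGALG00000002203, chromosome 13, 3197465 to 3262685), known for its role in the skeleton, had 9, 9 and 189 counts. Its log2 ratio of −4.38 ± 0.06 had the smallest SD among the 10 genes, with an adjusted p of 0.000126 in edgeR and an ESC level 25.6-fold higher (15.7 to 44.1). That SD rests on 9 counts in each PGC library. The counting interval for the fold of PGC replicate 3 over PGC replicate 2 was 0.378 to 3.06. FGF8 and FGF18 each lie next to a nucleophosmin family gene that was itself lower in PGCs. NPM3, 5.61 kb from FGF8, had 1503, 2630 and 11959 counts and a log2 ratio of −2.87 ± 0.64, with an adjusted p of 0.000238 in edgeR. NPM1, 8.18 kb from FGF18, had 35605, 51298 and 85471 counts and a log2 ratio of −1.28 ± 0.45, with an adjusted p of 0.0490 in edgeR.

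FGF1 and FGF2 form a subfamily without a classical signal peptide, and they behaved differently. FGF2 (ENSGALG00000011835, chromosome 4, 53933771 to 53959686), a mitogen of many cell types, had 167, 128 and 136 counts, or 7.46, 6.14 and 7.66 CPM. The ESC value was close to the higher of the PGC values, the log2 ratio was −0.18 ± 0.19, and the adjusted p was 0.753 in edgeR. The PGC level was 0.891-fold that of the ESC library, with a counting interval of 0.725 to 1.1, and its sign turned with scaling by total counts (0.14) or as TPM (0.29). NUDT6, which lies 0.5 kb from FGF2 on the opposite strand, had 257, 248 and 203 counts, and the strand setting of the counting was not stated. FGF1 (ENSGALG00000031255, chromosome 13, 17348659 to 17363069), which can bind every FGF receptor, had 0, 6 and 37 counts. Its log2 ratio was −3.48 ± 1.40, with an adjusted p of 0.0179 in edgeR, whereas DESeq2 gave an adjusted p of 0.0960 and so did not call it. The ESC level was 15.0-fold higher (6.28 to 43.5) over the pooled PGC libraries.

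Of the intracellular members, FGF12 did not differ detectably and FGF13 was lower in PGCs. FGF12 (ENSGALG00000036971, chromosome 9, 13369379 to 13557972) had 123, 155 and 109 counts, log2 ratios of −0.16 and 0.27 that differed in sign between the PGC libraries, and an adjusted p of 0.900 in edgeR. Its pooled PGC level was 1.05-fold that of the ESC library (0.837 to 1.32). FGF13 (ENSGALG00000006508, chromosome 4, 4778637 to 5001758) had 66, 175 and 631 counts, so that no PGC library reached the ESC level but the PGC libraries stood far apart. Its log2 ratio was −2.81 ± 1.05 and its adjusted p 0.00199 in edgeR. PGC replicate 3 exceeded PGC replicate 2 by 2.85-fold (2.14 to 3.84), and the log2 difference of −1.48 compares with an SD of 0.63 over the 2629 genes whose mean PGC count lay within 2-fold of its own. Of its flanking genes the closer one, the unnamed ENSGALG00000039821 at 1.81 kb on the same strand, had 31, 92 and 368 counts and an adjusted p of 0.00275 in edgeR, lower in PGCs.

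FGF9 (ENSGALG00000025748, chromosome 1, 178382192 to 178412065), which in the mouse is needed for testis development, was scarce in every library, with 11, 6 and 3 counts. It was the one member whose values were higher in both PGC libraries, with log2 ratios of 1.14 and 0.53 and an adjusted p of 0.464 in edgeR. FGF9 passed the filter through PGC replicate 2 alone, so its count there had to exceed that of the ESC library. The pooled PGC level was 2.33-fold that of the ESC library with a counting interval of 0.673 to 12.4, so a difference was not detectable at this depth. MICU2, its nearer neighbour at 24.35 kb, was lower in PGCs (262, 233 and 823 counts, adjusted p 0.000326 in edgeR), as were MB21D2 at 21.0 kb from FGF12 (75, 74 and 371 counts, adjusted p 0.000449) and ARHGAP26 at 12.75 kb from FGF1 (368, 457 and 895 counts, adjusted p 0.00292). Other tested neighbours were not called in edgeR. They were FBXW4 beside FGF8 (832, 819 and 513 counts), CETN1 beside FGF2 (2850, 2104 and 2271), F9 beside FGF13 (10, 10 and 0) and ENSGALG00000032622. The last, with 2, 13 and 0 counts, lies 4.33 kb from FGF1, nearer than ARHGAP26. LTO1 and NUDT6 were not called either, and 20.6% of all tested genes were lower in PGCs.

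Between the PGC libraries, 4 of the 10 genes differed beyond the counting interval, against 54.1% of all tested genes and 31.7% of the 5207 genes with a mean PGC count no higher than that of FGF2. FGF13 and FGF12 (1.35-fold, 1.06 to 1.73) were higher in PGC replicate 3, as was FGF1 with 6 counts against 0. FGF19 was higher in PGC replicate 2, by 1.61-fold (1.04 to 2.54). The SD of the log2 difference between the PGC libraries was 0.39 over 9667 genes that reached 100 counts in both. Of the 4 genes, FGF13 alone differed by more than 2 times the SD of genes of similar count.

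Summed over all 17 FGF genes of the count table, including those outside the set, levels were 67.2 and 60.2 TPM in PGCs and 184 TPM in the ESC library. The intracellular FGF11 subfamily took 37.5% and 51.0% in PGCs and 27.2% in the ESC library, and the FGF1 subfamily 34.6%, 28.2% and 9.95%. As summed levels, the FGF11 subfamily was lower in PGCs, at 25.2 and 30.7 TPM against 50.2 TPM. The FGF1 subfamily had 23.3, 17.0 and 18.3 TPM. The larger shares in PGCs thus go with a smaller total. The FGF19, FGF8 and FGF4 subfamilies took 22.2%, 15.1% and 11.2% in the ESC library, and none of them passed 5% in a PGC library. Of the 7 further FGF genes matched by symbol, 4 passed the filter. FGF20 (1, 2 and 16 counts) and FGF22 (0, 1 and 11 counts) were lower in PGCs, with adjusted p of 0.0303 and 0.0410 in edgeR, and neither was called by DESeq2. Both passed the filter through the ESC library alone, so their direction was fixed by it. FGF14, a relative of FGF12 and FGF13, had 72, 42 and 17 counts with an adjusted p of 0.103 in edgeR. FGF10 had 103, 74 and 65 counts with an adjusted p of 0.815. FGF7, FGF16 and FGF23 had at most 5 counts in a library.

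**Figure D4:**
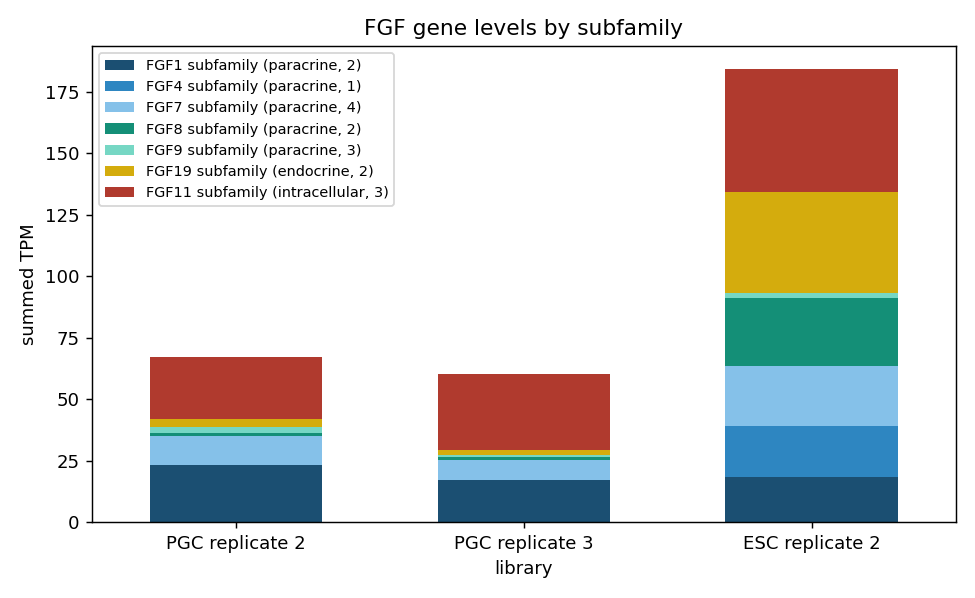
Summed TPM of the 17 FGF genes in each library, stacked by subfamily with the number of genes in each. The ESC bar reaches 184 TPM against 67.2 and 60.2 TPM in the PGC libraries, and the FGF19, FGF8 and FGF4 subfamilies take most of the added height.

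On the receiving side, 2 of the 4 receptor genes were lower in PGCs and none was higher. FGFR4 (97, 138 and 874 counts) and FGFR1 (551, 737 and 1263 counts) were the lower ones, with adjusted p of 7.25e-05 and 0.00545 in edgeR. FGFR2 (934, 1262 and 548 counts) and FGFR3 (861, 787 and 814 counts) did not pass, with adjusted p of 0.0708 and 0.394 in edgeR. Their log2 ratios were 0.70 ± 0.38 and −0.27 ± 0.02. KLB, the co-receptor through which FGF19 acts as a hormone in mammals, went the opposite way to FGF19 with 80, 73 and 4 counts. It was higher in PGCs with an adjusted p of 0.00275 in edgeR. KLB passed the filter through the PGC libraries alone, so its direction was fixed by it. Over the list of receptors and co-receptors 1 gene was higher and 2 were lower among 6 tested, with a median log2 ratio of −0.77.

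Among carriers and heparan sulfate genes, 3 were higher and 8 lower in PGCs of 19 tested (median log2 ratio −0.70), with the remaining 8 not passing. FGFBP1, a secreted carrier that releases FGFs from the matrix, had 0, 1 and 77 counts (adjusted p 0.000374 in edgeR). It passed the filter through the ESC library alone, which fixed its direction. SULF1, which removes sulfate groups from heparan sulfate, had a log2 ratio of −3.88 ± 0.34 (adjusted p 6.28e-05 in edgeR). SDC3, which encodes a cell surface heparan sulfate proteoglycan, had 15, 25 and 153 counts (adjusted p 0.00121 in edgeR). FLRT2, which encodes a membrane protein of a family that binds FGF receptors, had 22, 46 and 211 counts (adjusted p 0.00189 in edgeR). Among genes of signal transduction 1 was higher and 4 were lower of 14 tested (median −0.36). Lower genes included those of the adaptor SHC1 (log2 ratio −1.44 ± 0.14) and the phosphatase PTPN11 (−1.30 ± 0.15). The adaptor gene FRS3 was the higher one, at 1.72 ± 0.13 (adjusted p 0.00540 in edgeR).

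Feedback inhibitors and transcriptional targets of the pathway were lower in PGCs for 7 of 12 tested genes and higher for 2 (median −1.45). FOS, ETV1, ETV5 and SPRY2 had the largest changes as fitted by edgeR among the genes called. Their mean log2 ratios were −2.01 ± 0.57, −1.82 ± 0.61, −1.82 ± 1.04 and −1.43 ± 0.18, with adjusted p of 0.00175, 0.00272, 0.0160 and 0.00187 in edgeR. EGR1 and SPRED1 were higher, at 1.09 ± 0.16 and 0.90 ± 0.24. Among the sodium channel genes, whose proteins FGF12 and FGF13 bind, 3 were higher and 1 was lower of 5 tested (median 2.45). SCN1A had 939, 401 and 1 counts (adjusted p 5.79e-05 in edgeR) and SCN2A 370, 159 and 35 (adjusted p 0.00536 in edgeR). SCN1A passed the filter through the PGC libraries alone, so its direction was fixed by it. SCN8A was lower, with 46, 39 and 156 counts and an adjusted p of 0.00439 in edgeR. The shares to compare these lists with are 21.2% of all genes higher and 20.6% lower.

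**Figure D5:**
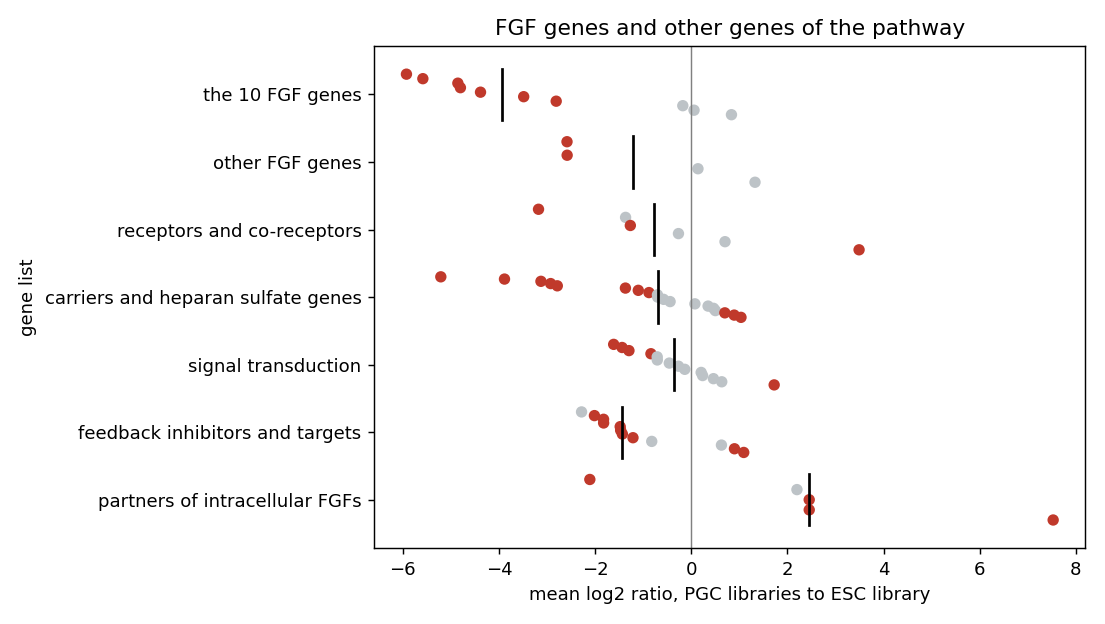
Mean log2 ratio of the PGC libraries to the ESC library for each tested gene of the FGF set and the other lists (red, adjusted p under 0.05 in edgeR; grey, not passing; black line, list median). The medians run from −3.93 for the 10 FGF genes to 2.45 for the partners of the intracellular FGFs.

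Most markers of posterior and primitive streak cells were lower in PGCs. In the ESC library 7 of the 8 markers were higher than in PGCs, MIXL1 being the exception, whereas 20.6% of all tested genes were lower in PGCs. The list summed to 1270 CPM against 48.9 and 113 CPM in PGCs. MSGN1, CDX1, CDX2 and CDX4 passed the filter through the ESC library alone, so their direction was fixed by it. TBXT, the brachyury gene, had 122, 173 and 11426 counts, and MSGN1 had 0, 6 and 1030. The endoderm list summed to 3.98, 2.40 and 58.1 CPM (2 of 5 lower and 2 higher in PGCs), with SOX17 at 0 in the ESC library. The mesenchyme and fibroblast list summed to 630, 739 and 106 CPM (3 of 6 tested higher and 2 lower), with TWIST1 at 0 in PGC replicate 3. Most of the PGC sums came from COL3A1 (570 and 402 CPM) and COL1A2 (51.4 and 327 CPM). The lower genes were PDGFRA (13, 18 and 742 counts) and DCN (1, 5 and 123), and DCN passed the filter through the ESC library alone. The neural list summed to 42.6, 98.2 and 50.2 CPM, and of the erythroid list 1 of 6 genes was matched. Mitochondrial genes took 4.44%, 6.54% and 10.1% of counts. How far these differences contribute to the FGF values was not tested.

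Genes with a pattern close to that of a member were sought by Euclidean distance in log2 CPM over the 3 libraries, among genes with a symbol. Closest to FGF19, which had the highest mean CPM of the members lower in both PGC libraries, were WNT5B (71, 33 and 990 counts, distance 0.29), RBM20 (56, 40 and 759, distance 0.55) and VILL (83, 50 and 909, distance 0.75). Closest to FGF9 were CCBE1 (12, 7 and 3 counts, distance 0.20), RF00003 (10, 7 and 3, distance 0.20) and KCNE2 (10, 6 and 4, distance 0.30), all at 12 counts or fewer. Over 3 libraries such closeness is only a description.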

How the data were processed

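RNA was sequenced from PGC replicates 2 and 3 and ESC replicate 2, grouped by sample title. The study's methods list alternative sequencing instruments, providers and read lengths and do not assign them to libraries. Whether these libraries differed in them is therefore not known. Any such difference could not be told apart from those between cell types or between the PGC libraries. Per the study's methods, the authors aligned paired-end reads with TopHat and Bowtie 2 to Ensembl transcripts of galGal5 and counted them with featureCounts; versions and strand setting are not given in the sources used here. The deposited count table holds raw counts for 19152 genes and their lengths, which equal the union of the exons and were used to compute TPM from the counts. Symbols came from the authors' deposited DESeq2 table, whose fold changes, p-values and normalized values hold the authors' own comparison and were not used. A further 4 columns of per-sample values, named as replicates of PGCs and ESCs, matched no sample label held here and were not used.

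The 14489 genes that reached 10 counts in any library were fitted with edgeR 4.0.16 in R 4.3.3 (TMM factors, glmQLFit and glmQLFTest, 1 residual degree of freedom, Benjamini-Hochberg adjustment over all genes). The script was tested on simulated data. Log2 ratios used a prior count of 2, and ± is the SD over the 2 PGC libraries. Fold intervals are exact conditional binomial at 95%, and cover counting error only, as do the count floors of 3. The alternatives were other scalings, filters and thresholds, DESeq2 1.42.0, and leaving out each PGC library. Protein and promoter sequences were not analysed here. TBXT was matched through its older symbol T, and MAPK3, HRAS, FGF5, FGF6, FGF11, FGFBP3, SPRED3 and MAPK8IP2 had no match. Genes named are the 10 members, the 4 receptors, up to 4 called genes per list by size of change, their neighbours and the closest patterns; others were chosen after their values were seen. Some genes that the rule names are not reported here. The members and lists were chosen with earlier results of these data known.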

Additional observations from a re-analysis of the deposited data

How the results depend on the processing

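The log2 ratios of FGF1, FGF3, FGF4, FGF8, FGF13, FGF18 and FGF19 stayed negative under every alternative that gave a value, but their size moved at low counts, that of FGF3 from −5.92 to −8.27 with DESeq2 and −7.43 with a prior count of 0.5. FGF2 turned to 0.14 with total counts and 0.29 as TPM, and FGF12 ran from −0.12 to 0.27 with either PGC library left out, turning sign without PGC replicate 3. FGF1 lost its call with DESeq2 (adjusted p 0.0960, against 0.00678 to 0.0960 over the alternatives). Leaving out PGC replicate 2 or 3, which leaves values with no test, gave 7 genes at least 2-fold lower each time and 0 or 1 higher, the 1 being FGF9. Over all genes, an adjusted p under 0.01 left 1766 of 3069 higher and 1730 of 2979 lower, a 4-fold threshold 1491 of 3124 and 859 of 2293, whereas TPM gave 4290 genes at least 2-fold higher and 1454 lower. Total counts shifted the median of all genes to 0.34 and TPM to 0.49, and the higher share of 2-fold changes rose from 57.7% to 70.2% and 74.7%. Counts of called list genes changed by over 1.5 times in these cases: higher receptors numbered 2 and higher signal transduction genes 3 with total counts; the other FGF genes lower numbered 0 with DESeq2, with at least 50 counts and at an adjusted p under 0.01, where carriers higher and feedback genes higher were also 0 and feedback genes lower 3; smaller changes included 5 feedback genes lower with total counts or DESeq2, and 6 of the 10 FGF genes lower at an adjusted p under 0.01. The 50-count filter removed FGF20 (at most 16 counts) and FGF22 (at most 11 counts) before testing, so they could not be called lower at that setting. The cause of the other changes was not tested. Depth limits FGF9 and the PGC values of FGF1, FGF3, FGF4, FGF8 and FGF18. No paired analysis was possible because the groups share 1 replicate number only.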

Other observations

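The feedback inhibitors and targets of FGF signalling also differed between the 2 PGC libraries. Of 12 tested genes, 11 had a higher CPM in PGC replicate 3, FOS being the exception, and 5 were at least 2-fold higher there, against 4.13% of all genes. Among these 5, SPRY4 rested on 0 and 5 counts in PGC replicates 2 and 3. DUSP6, which encodes a phosphatase that inactivates ERK, had CPM of 6.21 and 25.6 in PGC replicates 2 and 3, beside 22.4 in ESCs. ETV5, an ETS factor gene induced by FGF signals, had 8.53, 23.8 and 50.7 CPM, and IL17RD, an inhibitor of FGF receptor signalling, had 20.9, 59.1 and 98.2 CPM. The median log2 difference of the list, PGC replicate 3 minus PGC replicate 2, was 0.91, and that of all tested genes was -0.0024. Of the 4 FGF genes that differed beyond counting error, FGF1, FGF12 and FGF13 were also higher in PGC replicate 3, and FGF19 was lower there. With 1 library of each PGC replicate the differences were not tested.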
